A study of Mus musculus with 14 samples.

Results

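In this study 8 genes of Fc receptors, their signalling adaptors and the kinase Syk were followed in epididymal white adipose tissue (eWAT), out of 23282 genes in the count table. They were taken by symbol, all 8 were present, and they are the adaptor genes Tyrobp (DAP12), Fcer1g (FcRγ) and Hcst (DAP10), the IgG receptor genes Fcgr1, Fcgr3, Fcgr4 and Fcgr2b, and Syk. Fc receptors hold the Fc end of an antibody at the surface of a cell, and most of them carry no signalling sequence of their own. The activating receptors for IgG borrow the ITAM, a tyrosine motif, of the adaptor chain FcRγ, and many other myeloid receptors borrow that of the adaptor DAP12. Src family kinases phosphorylate the motif, the kinase Syk docks on it, and the inhibitory receptor FcγRIIb opposes the signal through a motif of the opposite effect, the ITIM. In fat, macrophages are the cells best known for these proteins, with mast cells, neutrophils, dendritic cells and NK cells each using some of them.

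The libraries came from wild type male C57BL/6J mice that entered the study at 4 weeks of age and ate their diet for 20 weeks. Of the 14 libraries, 9 were from control mice on normal diet and 5 from mice on the Western diet (WD), which is richer in fat and contains cholesterol. The labels place 4 controls and all 5 WD libraries in batch 1 and the other 5 controls in batch 2, without saying what a batch is. The diets were therefore compared within batch 1, 4 libraries against 5, with 2 further comparisons of the same WD libraries against all 9 controls and against the batch 2 controls alone. In the last of these, diet and batch cannot be told apart, and the 3 comparisons share their WD libraries. Each library was made from whole fat, so a lower level in it may reflect fewer cells of a type or less RNA per cell, and these cannot be told apart.

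The assay was QuantSeq 3′ mRNA sequencing, which reads the 3′ end of each transcript. Libraries held between 10278970 and 13712254 counts, and a count of 0 allowed a level of up to between 0.219 and 0.292 CPM (3 counts of the library total). Levels are given in CPM, the usual unit of read counts scaled for depth, after TMM normalization over all 14 libraries, with errors as SD. Two-sided exact permutation tests used log2(CPM + 1), and the fold changes are edgeR's, with the standard error (SE) and a false discovery rate (FDR) over all genes tested. A pair of batch 1 controls stood apart. Control 1 held 48459 CPM of 14 epididymis genes, against at most 27.9 CPM in the other libraries, and 4069 CPM of 7 adipocyte markers, against 21794 to 47439 CPM elsewhere. Control 4 had counts for 7999 genes, against 10903 to 13780 in the others, and its summed level of 10 macrophage markers was 1546 CPM, within the range of the WD libraries (1497 to 2289 CPM) and above the other controls of both batches (259 to 933 CPM). All 10 macrophage markers were detected, although Mertk was at 0 in 9 of the 14 libraries.

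Tyrobp encodes DAP12, the ITAM chain of Trem2 and of many other myeloid and NK cell receptors, and it was the 1 member whose WD libraries overlapped the controls in none of the 3 comparisons. Its level was 13.8, 36.9, 32.7 and 97.7 CPM in batch 1 controls 1 to 4, and 185, 206, 136, 208 and 132 CPM in WD mice 1 to 5. In the batch 2 controls it was 34.4, 17.4, 46.1, 49.2 and 26.7 CPM. All 5 WD libraries lay above all 9 controls, and the highest control was control 4 of batch 1. The means were 45.3 ± 36.4 CPM (n = 4) in the batch 1 controls, 174 ± 37.0 CPM (n = 5) under WD and 34.8 ± 13.2 CPM (n = 5) in the batch 2 controls.

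Within batch 1 the fitted fold change of Tyrobp was 3.86, or 1.95 on the log2 scale (SE 0.46). It ranked 19 of 12157 genes by p and had an FDR of 0.434 in edgeR, so the call was not made there. The exact permutation p was 0.00794, below which 4 libraries set against 5 cannot go, and adjusted over the 12157 genes it was 0.275. Without control 4 of batch 1, the fold change became 2.59 on the log2 scale with an FDR of 0.0122, and DESeq2 called the gene with all libraries in (FDR 0.0210). Against all 9 controls Tyrobp was higher by 2.13 on the log2 scale (SE 0.34), with an edgeR FDR of 0.00647, and it ranked 11 of 12653 genes. With batch as a covariate that FDR was 0.116. Against the batch 2 controls the log2 fold change was 2.32 (SE 0.28), with an edgeR FDR of 9.6e-05. The exact permutation p adjusted over all genes tested was 0.0665 against all controls and 0.0892 against batch 2. After that adjustment no gene, and so no member, was under 0.05 in any comparison.

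Fcer1g encodes FcRγ, the ITAM chain on which the activating IgG receptors depend for surface expression and signalling. It was read at 31.5, 70.3, 42.3 and 135 CPM in batch 1 controls 1 to 4, against 152, 131, 129, 134 and 94.2 CPM in WD mice 1 to 5. The batch 2 controls had 38.6, 22.3, 19.5, 60.5 and 27 CPM. The WD libraries formed a narrow group, above every control of both batches but control 4 of batch 1, whose level lay among theirs. The log2 fold change of Fcer1g was 0.88 (SE 0.39, edgeR FDR 0.932) within batch 1, 1.35 (SE 0.37, FDR 0.158) against all controls and 1.93 (SE 0.29, FDR 0.000659) against batch 2. Only the last of these passed the threshold. Without control 4 of batch 1, the comparison with all controls also passed it (1.70, FDR 0.0027). Within batch 1 the log2 fold change ran from 0.67 to 1.35 with single libraries left out, and none of these passed.

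Hcst encodes DAP10, which lacks an ITAM and recruits PI3-kinase instead, chiefly for the NK cell receptor NKG2D. Its levels were low, with 0, 0, 4.24 and 10.7 CPM in batch 1 controls 1 to 4 and 4.26, 5.44, 5.13, 0 and 2.68 CPM in WD mice 1 to 5. In batch 2 they were 5.09, 2.23, 3.72, 3.30 and 5.76 CPM. The groups overlapped throughout, and the fitted log2 fold changes were -0.05 (SE 1.94), -0.15 (SE 1.29) and -0.20 (SE 1.05) against batch 1, all and batch 2 controls, with edgeR FDRs of 1.000, 0.999 and 0.968. The sign turned under several alternatives, within batch 1 to 1.53 in limma-voom. Hcst (chr7:30417712-30419854, minus strand) lies tail to tail with Tyrobp (chr7:30413788-30417579, plus strand), with 132 bases between the ends in the count table (GRCm38), and the neighbours had a Pearson correlation of 0.22 over the 14 libraries, which share their groups and batches. Of 10 NK and T cell markers, between 1 and 6 had a count in any library, and Gzmb was at 0 in all 14.

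**Figure D1:**
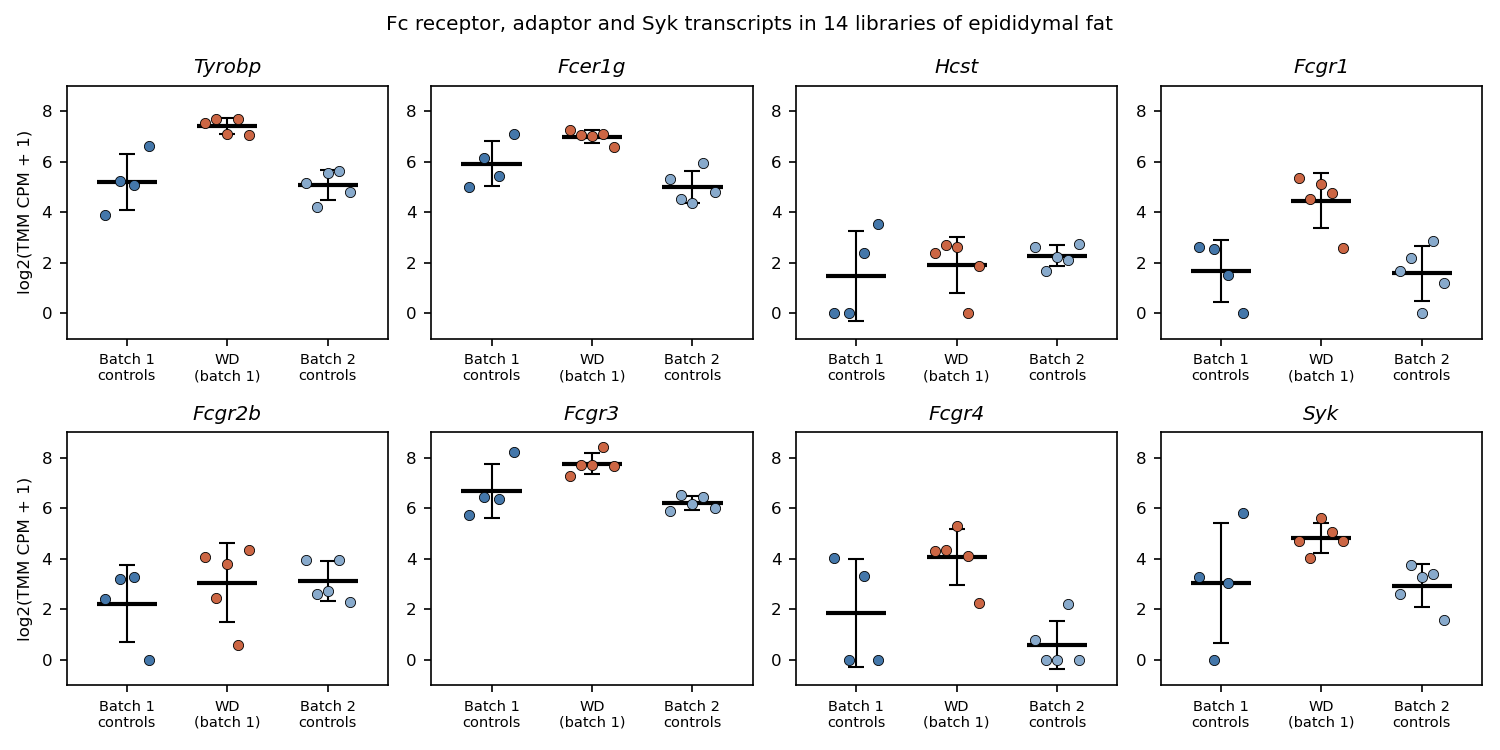
Levels of the 8 genes as log2(TMM CPM + 1) on the vertical axis, in 4 batch 1 controls, 5 WD libraries (batch 1) and 5 batch 2 controls. Each point is 1 library, the long bar is the group mean and the whiskers are 1 SD. Tyrobp is the gene whose WD points clear the points of both control groups, while Hcst and Fcgr2b overlap in all.

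The receptor genes Fcgr2b (chr1:170960559-170976071, minus strand), Fcgr4 (chr1:171018926-171029761, plus) and Fcgr3 (chr1:171051169-171059403, minus) lie in a row on chromosome 1, near Fcer1g (chr1:171229572-171234349, minus). Fcgr1 lies on chromosome 3 (chr3:96282909-96293969, minus) and Syk on chromosome 13 (chr13:52583437-52648792, plus). These are the positions in the count table, and 99.6% of all matched symbols overlap the same symbol in GENCODE's annotation of GRCm38. An antisense gene, Gm38204, overlaps Fcgr2b and a small nuclear RNA gene, Gm26110, lies within Fcgr4, and neither was analysed here. For the 4 IgG receptors, the 150 bases before the start of transcription are shown because these genes hold the activating and the inhibitory receptors side by side. The sequences are from RefSeq (GRCm38.p6), 5′ to 3′ on the strand of the gene, and capitals mark GAGGAA or its reverse complement TTCCTC, the core bound by the myeloid factor PU.1, which contains the GGAA core shared by all ETS factors.
Fcgr1 (chr3:96293970-96294119, minus strand): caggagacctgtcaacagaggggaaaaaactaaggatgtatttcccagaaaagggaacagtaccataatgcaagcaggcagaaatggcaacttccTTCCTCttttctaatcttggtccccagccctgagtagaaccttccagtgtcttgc
Fcgr3 (chr1:171059404-171059553, minus strand): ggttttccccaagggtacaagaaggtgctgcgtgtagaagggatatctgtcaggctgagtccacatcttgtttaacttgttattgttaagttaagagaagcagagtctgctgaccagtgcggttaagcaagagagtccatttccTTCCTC
Fcgr4 (chr1:171018776-171018925, plus strand): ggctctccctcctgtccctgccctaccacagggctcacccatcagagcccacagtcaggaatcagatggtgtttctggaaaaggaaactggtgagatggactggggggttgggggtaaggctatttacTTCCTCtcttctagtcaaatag
Fcgr2b (chr1:170976072-170976221, minus strand): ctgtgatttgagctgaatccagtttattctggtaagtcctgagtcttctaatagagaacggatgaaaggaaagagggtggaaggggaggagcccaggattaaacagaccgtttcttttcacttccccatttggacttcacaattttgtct
The 3 activating receptors each hold the core once in the 250 bases before the start, at 55 bases before it in Fcgr1, 6 in Fcgr3 and 22 in Fcgr4, counted from the first base of the match. From a second RefSeq start of Fcgr3 the same match lies 15 bases before it. The inhibitory Fcgr2b holds none before the RefSeq start used here. GENCODE's genes on the minus strand begin further upstream, at 170976547 for Fcgr2b and 171064935 for Fcgr3. The sequences shown for these genes thus lie within GENCODE's bounds, and the contrast holds only for the RefSeq starts. Of the 8 genes, 7 had a window in the RefSeq table. Of these 7, 4 held the core on either strand, which were the 3 activating receptors and Syk, at the second of its 2 starts. Fcer1g, Hcst and the first start of Syk did not. Counted by window, 5 of the 9 windows of these genes hold it, those of Fcgr3 overlapping, beside 23.3% of all 32851 windows in the table. Whether the core is bound in these samples was not measured.

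Fcgr1 encodes the high-affinity receptor for IgG and is used as a macrophage marker in its own right. It was read at 5.10, 4.84, 1.83 and 0 CPM in batch 1 controls 1 to 4 and at 39.5, 22.3, 33.2, 26 and 5.03 CPM in WD mice 1 to 5. The batch 2 controls had 2.15, 3.49, 0, 6.37 and 1.31 CPM. WD mice 1 to 4 were above all 9 controls, and WD mouse 5 fell among the controls. Control 4 of batch 1, whose summed macrophage markers exceeded those of WD mouse 5 alone among the WD libraries, had no count of Fcgr1. The mean was 2.94 ± 2.46 CPM (n = 4) in the batch 1 controls and 25.2 ± 13.1 CPM (n = 5) under WD, a ratio of 8.56.

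The fitted log2 fold change of Fcgr1 was 3.01 (SE 1.20) within batch 1, with an edgeR FDR of 0.831. It was 3.14 (SE 0.93, FDR 0.203) against all controls and 3.24 (SE 0.82, FDR 0.0249) against the batch 2 controls. The fitted fold lay between 8.05 and 9.43 with the 3 sets of controls, and with single libraries left out the log2 fold change ran from 2.57 to 3.86. The test was passed only against batch 2. That call was lost in limma-voom, with the replicate block and when WD mouse 1 or 3 or batch 2 control 1, 2 or 5 was left out (FDR up to 0.0999). Against all controls it was gained in DESeq2 (FDR 0.0364) and without control 4 of batch 1 (FDR 0.0422).

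Fcgr3 encodes the low-affinity activating receptor found on macrophages, neutrophils, mast cells and NK cells. Its level was 52.7, 86.5, 80.5 and 295 CPM in batch 1 controls 1 to 4 and 154, 211, 209, 346 and 203 CPM in WD mice 1 to 5. In batch 2 it was 57.9, 91.2, 69.8, 86.2 and 63.5 CPM. The WD libraries lay above 8 of the 9 controls, and control 4 of batch 1 lay above 4 of the 5 WD libraries. The log2 fold change was 0.81 (SE 0.45, edgeR FDR 1.000) within batch 1, 1.18 (SE 0.35, FDR 0.195) against all controls and 1.61 (SE 0.23, FDR 0.000422) against batch 2. Without control 4 of batch 1, the value within batch 1 was 1.55 with an FDR of 0.0857, and that against all controls was 1.59 with an FDR of 0.000337. With other single libraries left out, the value within batch 1 ran as low as 0.58.

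Fcgr4 encodes a further activating receptor of mice, which binds IgG2a and IgG2b. Batch 1 controls 1 to 4 had 15.4, 0, 8.89 and 0 CPM and WD mice 1 to 5 had 18.7, 19.5, 38.6, 16 and 3.77 CPM. In batch 2, controls 1 and 4 had 0.716 and 3.61 CPM and the other 3 had 0. The batch 1 controls were thus split between levels within the range of WD and 0. The log2 fold change was 1.54 (SE 1.50, edgeR FDR 1.000) within batch 1, 2.50 (SE 1.37, FDR 0.774) against all controls and 4.44 (SE 1.17, FDR 0.0298) against batch 2. The last value is set against 10 and 47 counts in the batch 2 controls that had any, and lost its call when any of 6 libraries was left out, which were WD mouse 1 or 3 and batch 2 control 1, 2, 3 or 5 (FDR up to 0.110). Without batch 2 control 4, which held most of those counts, it was 6.57 (FDR 0.00313), and without batch 1 control 1 the value within batch 1 was 2.70 (FDR 0.973). Within batch 1 limma-voom gave 4.55 and the replicate block 4.81, neither of which passed.

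Fcgr2b encodes the single inhibitory IgG receptor, which recruits the phosphatase SHIP1 through its ITIM. It was read at 4.25, 8.07, 8.64 and 0 CPM in batch 1 controls 1 to 4 and at 15.6, 4.48, 13, 0.484 and 19.6 CPM in WD mice 1 to 5. The batch 2 controls had 14.7, 5.14, 5.55, 14.7 and 3.94 CPM. The WD libraries overlapped the controls from the lowest levels to the highest, and 2 of them exceeded every control. The fitted log2 fold changes were 0.98 (SE 1.41), 0.55 (SE 0.92) and 0.27 (SE 0.73) against batch 1, all and batch 2 controls, with edgeR FDRs of 1.000, 0.999 and 0.925. In limma-voom the last was -0.30. The lowest levels of Fcgr2b came from control 4 of batch 1 and WD mouse 4, which had the highest levels of Fcgr3 in their groups and the fewest genes with a count, 7999 and 10903.

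Syk encodes the kinase that docks on the phosphorylated ITAM. Batch 1 controls 1 to 4 had 8.79, 0, 7.23 and 54.6 CPM and WD mice 1 to 5 had 25, 15.4, 48.6, 32.6 and 24.8 CPM. In batch 2 the levels were 5.09, 12.5, 8.74, 9.45 and 2.02 CPM. The WD libraries were above 8 of the 9 controls, and control 4 of batch 1 had the highest level of all 14 libraries. The log2 fold change was 0.74 (SE 1.11, edgeR FDR 1.000) within batch 1, 1.26 (SE 0.81, FDR 0.874) against all controls and 1.95 (SE 0.47, FDR 0.0182) against batch 2. Without control 4 of batch 1, the log2 fold change was 2.32 (FDR 0.494) within batch 1 and 2.09 (FDR 0.149) against all controls, and with any other single library left out it ran as low as 0.29 within batch 1. The exact permutation p within batch 1 was 0.135. Without control 4 it was 0.0179, below which 3 libraries set against 5 cannot go. Every other batch 1 control lay below all WD libraries, so leaving out control 4 fixed that p at its floor. The call against batch 2 was lost without WD mouse 3 (FDR 0.0780) or batch 2 control 1 (FDR 0.0566).

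Over the 8 members, 0 passed an FDR of 0.05 within batch 1, where edgeR called 0 of 12157 genes (0%). At an unadjusted p under 0.05 there were 3 members, Tyrobp, Fcer1g and Fcgr1, all higher, against 3.35% of all genes, and DESeq2 called 1 member, where it called 0.773% of genes higher. The groups did not overlap for 1 member, Tyrobp, against 3.08% of all genes. Against all controls 1 of 8 passed, where 0.435% of genes were called higher, and 4 had an unadjusted p under 0.05, against 4.48%. The groups did not overlap for 1 (background 1.11%). Against the batch 2 controls 6 of 8 passed, all higher, where 3.93% of genes were called higher, and the groups did not overlap for 5 (background 4.88%). One of the 6, Fcgr4, was tested only where WD libraries were in the fit, and without it 5 of 7 passed. Fcgr4 is also 1 of the 5 without overlap. Its lowest WD library had 3.77 CPM (45 counts) and its highest batch 2 control 3.61 CPM (47 counts). The median log2 fold change of the members was 0.93, 1.31 and 1.94 in the 3 comparisons, and 0.88, 1.26 and 1.93 without Fcgr4, against 0.03, -0.04 and 0.00 for all genes tested. The study drew its own list of raised immune and inflammatory genes from these libraries. A direction that the members share with that list is not independent evidence.

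Leaving out 1 library moved these counts. Without control 4 of batch 1, there was 1 member called within batch 1, where 0.326% of all genes were called higher, and 4 against all controls (Tyrobp, Fcer1g, Fcgr1 and Fcgr3), where 1.81% were. The same member counts were found with controls 1 and 4 both left out, beside 0.567% and 3.10% of all genes. Against batch 2 the count fell to 3 without WD mouse 3 (3.00% of all genes) or without batch 2 control 1 (2.82%), and to 5 with the replicate block (2.91%). Against all controls DESeq2 called 2 members (1.12% of all genes), limma-voom 4 (1.63%) and the fit with batch as a covariate 0 (0.00790%). The batch 2 controls differed from the batch 1 controls in no member at an FDR of 0.05, of 7 tested and with 0 of 12106 genes called (0%). Of these 7, 2 had higher fitted levels in batch 2. The median log2 fold change of the 7 was -0.38, against 0.00 for all genes tested, with -1.23 for Syk (SE 1.24) and -0.81 for Fcgr3 (SE 0.42). The 1 member with an unadjusted p under 0.05 was Fcer1g, with a log2 fold change of -1.07 (SE 0.47, edgeR FDR 0.638), against 3.54% of all genes lower at that level, and Fcgr4 was too low to be tested.

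**Figure D2:**
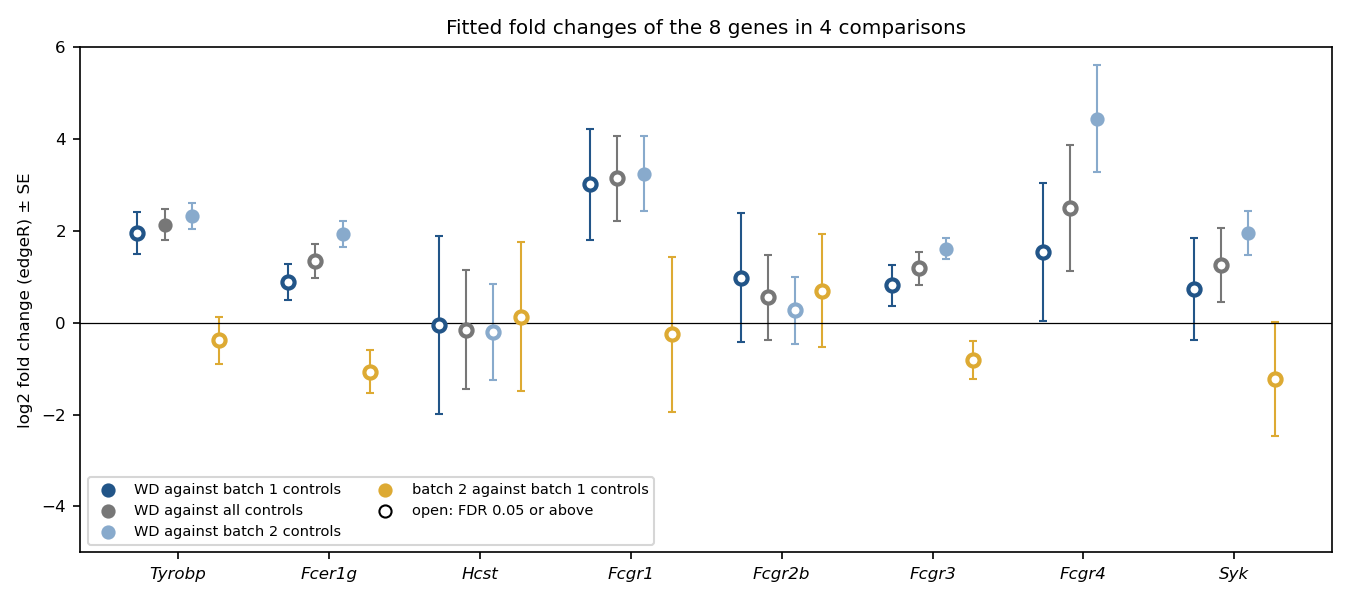
Log2 fold changes from edgeR (vertical axis) with their standard errors for the 8 genes, in the 3 comparisons of WD with controls and in batch 2 against batch 1 controls. Filled points have an FDR under 0.05, which holds for Tyrobp against all controls and for 6 genes against the batch 2 controls, and for none within batch 1. Fcgr1 stays between 3.01 and 3.24 while Fcgr4 moves from 1.54 to 4.44 with the choice of controls.

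The balance between members was compared within each library, as the difference of their log2(CPM + 1), which removes what scales both genes alike. Since a 3′ read count per gene is not calibrated between genes, only the change of a ratio between groups is read here. In all, 14 ratios in 3 comparisons gave 42 exact permutation tests, with p-values that are not adjusted, and 16 of them had p under 0.05. Tyrobp was higher relative to Fcer1g within batch 1, from -0.72 ± 0.37 (n = 4) to 0.42 ± 0.24 (n = 5), without overlap (exact permutation p = 0.00794). The batch 2 controls had 0.08 ± 0.64 (n = 5), with control 3 of that batch at 1.20, above all WD libraries, and against them the difference was 0.35 with an exact p of 0.286. So the shift between these adaptors was seen against the controls of batch 1 and not detected against those of batch 2.

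Tyrobp was also higher relative to the summed level of the 10 macrophage markers, none of which is a member. The log2 ratio was -4.22 ± 0.28 in the batch 1 controls (n = 4), -3.48 ± 0.12 under WD (n = 5) and -4.06 ± 0.49 in the batch 2 controls (n = 5). The exact permutation p was 0.00794 within batch 1, 0.00749 against all controls and 0.0476 against batch 2, where 1 control, at -3.24, lay above every WD library. Relative to the same markers, Fcer1g differed by -0.40 within batch 1 (exact p = 0.0317, and 0.0893 or 0.0536 without control 1 or 4), and by -0.05 (exact p = 0.815) and 0.23 (exact p = 0.119) against all and batch 2 controls. For Fcgr3 the differences were -0.40, -0.29 and -0.21 (exact p = 0.254, 0.313 and 0.532) and for Syk 0.32, 0.21 and 0.13 (exact p = 0.849, 0.814 and 0.810), with a sign that turned for Syk without control 2 of batch 1. In the same order, Fcgr1 had 1.33, 1.21 and 1.11 (exact p = 0.254, 0.128 and 0.111). Fcgr4 had 0.75, 1.27 and 1.69 (exact p = 0.611, 0.221 and 0.0159), with no count in 3 of the 5 batch 2 controls. The ratio of Fcgr1 depends on the pseudocount, since 1 control of each batch had no count of it. Its difference against batch 2 was 2.03 with a pseudocount of 0.1 CPM (exact p = 0.0476). Against all controls it was 1.49 without batch 1 control 1 (exact p = 0.0458). Of the 10 macrophage markers 9 were tested, 8 of them had a fitted fold change above 0 in each comparison, and 0, 3 and 6 passed an FDR of 0.05 in edgeR against batch 1, all and batch 2 controls, with medians of 1.14, 1.70 and 1.84 on the log2 scale. Their part in the levels of the members was not tested beyond these ratios.

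The ratio of activating to inhibitory receptors had an exact p under 0.05 for Fcgr1 and Fcgr4 in 2 of the 3 comparisons, higher under WD. For Fcgr1 over Fcgr2b the log2 ratio was -0.55 ± 0.89 in the batch 1 controls (n = 4), 1.42 ± 2.14 under WD (n = 5) and -1.53 ± 0.94 in the batch 2 controls (n = 5). The exact permutation p was 0.143 within batch 1, 0.00949 against all controls and 0.0317 against batch 2. WD mouse 5, at -1.77, lay at the level of the lowest batch 1 control, while WD mouse 4 reached 4.18. For Fcgr4 over Fcgr2b the differences were 1.39, 2.58 and 3.53, with exact p of 0.365, 0.0280 and 0.0159, where the second was 0.0513 without batch 1 control 2. These ratios include libraries with no count, whose values the pseudocount sets. Control 4 of batch 1 had none for Fcgr1, Fcgr4 or Fcgr2b, and 3 of the 5 batch 2 controls had none for Fcgr4. For Fcgr3 over Fcgr2b they were 0.24, 1.01 and 1.63, with exact p of 0.802, 0.371 and 0.135. No activating receptor passed within batch 1. The ratio of Fcgr2b to the macrophage markers was lower under WD than in the batch 2 controls, with a difference of -1.84 (exact p = 0.0159, and 0.0556 with a pseudocount of 0.1 CPM). So was that of Hcst, with -2.14 and no overlap (exact p = 0.00794). Within batch 1 these differences were -0.63 (exact p = 0.635) and -1.04 (exact p = 0.246). Against batch 2 the mean log2 differences of the genes themselves were -0.07 for Fcgr2b (exact p = 0.897) and -0.36 for Hcst (exact p = 0.675). The summed markers averaged 1943 ± 354 CPM under WD (n = 5) and 578 ± 167 CPM in the batch 2 controls (n = 5). The lower ratios thus do not show a fall in the level of either gene.

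**Figure D3:**
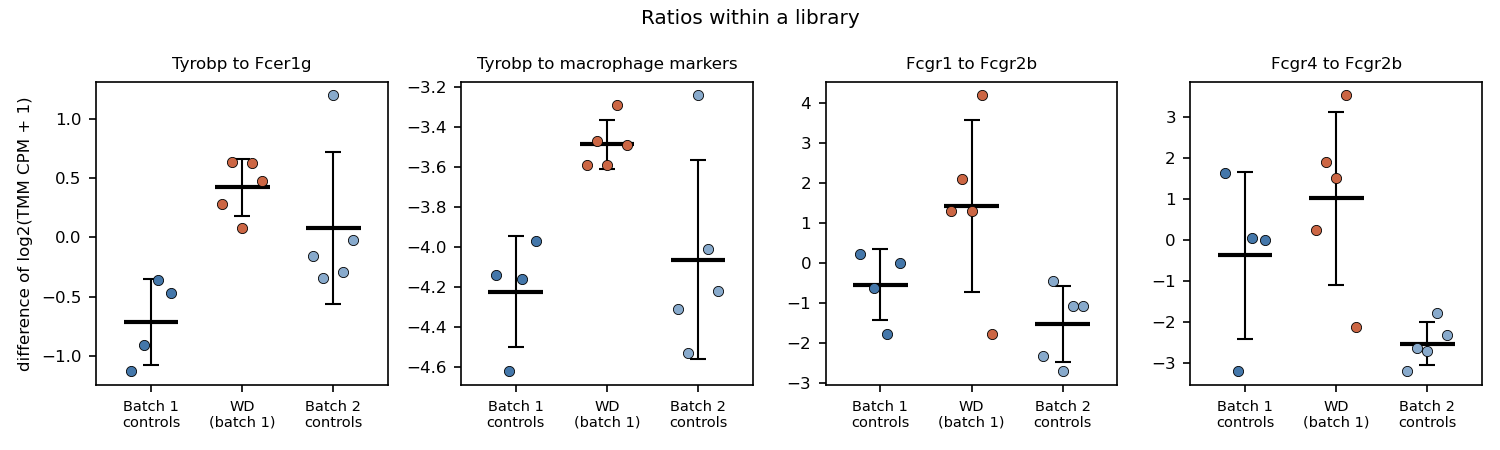
Differences of log2(TMM CPM + 1) within a library (vertical axis, with its own scale in each panel) for 4 of the ratios, in batch 1 controls, WD and batch 2 controls. Points are libraries, long bars means and whiskers 1 SD. Tyrobp to Fcer1g separates WD (0.08 to 0.64) from the batch 1 controls (-1.13 to -0.36), and 1 batch 2 control lies above WD in both panels of Tyrobp.

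Across the 14 libraries, Tyrobp, Fcer1g and Fcgr3 followed each other most closely, with Pearson correlations of 0.86 to 0.88 on the log2 scale. The libraries share groups and batches, and after the group means were subtracted the values were 0.63 to 0.78. Fcgr1 and Fcgr4 had 0.81 (0.60 after subtraction), and Fcgr2b and Fcgr3 -0.40 (-0.70). Among all tested genes, the 3 most like Tyrobp were Pam (0.97), Itgax (0.97) and Lgals3 (0.96), where Itgax encodes CD11c and Lgals3 the lectin galectin-3. Among those most like Fcer1g were Cd68 (0.95) and Mpeg1 (0.93), both macrophage genes, and those most like Fcgr3 were Fam111a (0.97), Cd84 (0.96) and Tph2 (0.95). The kinase Syk was closest to Mmp12 (0.94), the macrophage elastase, then Akip1 and Nkd1. For the low members the closest genes were Galnt7, Wisp2 and Cxcr4 for Fcgr1, Pkib, Slc25a13 and Cenpf for Fcgr4, Rhobtb2, Hyal2 and Lss for Fcgr2b, and Myl4, Smyd1 and Pmf1 for Hcst, with correlations of 0.86 to 0.93. After the group means were subtracted, 0 to 2 of each 3 stayed among the 3 closest.

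The genes around the pathway were taken from 7 lists, and within batch 1 none of their tested genes passed an FDR of 0.05 in edgeR, nor did any against all controls. Receptors that pair with an adaptor, such as DAP12, FcRγ or DAP10, came first. Of the 22 listed, 20 were in the count table, and 3 of the 10 tested against the batch 2 controls were called higher, where 3.93% of all genes were. Trem2, the lipid-sensing partner of DAP12, averaged 39.9 ± 69.2 CPM in the batch 1 controls (n = 4), 113 ± 35.1 CPM under WD (n = 5) and 4.89 ± 3.34 CPM in the batch 2 controls (n = 5). Its log2 fold change was 1.54 (SE 0.91, edgeR FDR 1.000) within batch 1 and 4.53 (SE 0.49, FDR 3.4e-05) against batch 2. Control 4 of batch 1 reached 144 CPM of Trem2, and the lower mean of the batch 2 controls against those of batch 1 had an unadjusted edgeR p of 0.0206 and an FDR of 0.555. The activating receptors Cd300ld (2.25, FDR 0.00135) and Cd300lb (2.57, FDR 0.0164) also rose against batch 2, while Clec4n, the FcRγ partner dectin-2, had 3.59 (SE 1.62, FDR 0.255). Within batch 1 these 3 genes had 2.23, 1.42 and -0.02, and none passed. Between batch 2 and batch 1 controls they had -0.03, -1.16 and -3.62, and none passed there either. For Clec4n the difference against batch 2 was thus close in size to that between the control batches. The median of the tested receptors was 1.23, 1.70 and 2.26 on the log2 scale in the 3 comparisons, beside 0.03, -0.04 and 0.00 for all genes.

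Of the Src family kinases, Lyn rose against batch 2 (1.33, SE 0.33, edgeR FDR 0.0210). The more widely expressed Fyn and Yes1 had 0.59 (FDR 0.504) and -0.28 (FDR 0.936) there. Within batch 1 their values were -0.83 and -2.05, against 1.09 for Lyn, none of which passed. Of 25 genes that act downstream of Syk, 19 were tested against batch 2 and 4 rose, which were the adaptors Blnk (3.41) and Lat2 (3.21), the exchange factor Vav1 (2.81) and the kinase Prkcd (1.87), beside 3.93% of all genes. Within batch 1 the same 4 genes had 1.34, 2.24, 2.66 and -0.07, and between batch 2 and batch 1 controls Blnk had -2.09, Vav1 -0.17 and Prkcd -1.96, none of which passed. For Prkcd the difference against batch 2 was thus close in size to that between the control batches. Blnk averaged 54.4 ± 6.04 CPM under WD (n = 5) against 21.5 ± 25.6 CPM (n = 4) and 5.10 ± 1.86 CPM (n = 5) in the batch 1 and batch 2 controls. The widely expressed Grb2 and Gab2 had 0.34 (FDR 0.479) and 0.59 (FDR 0.179) against batch 2. The medians of the downstream genes were 0.61, 0.74 and 1.44.

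Inhibitors and ITIM receptors gave the most calls of any list, with 10 of 22 tested genes higher against batch 2 and none lower, beside 3.93% of all genes called higher. They include the phosphatases Ptpn6 (SHP-1, 1.91) and Inpp5d (SHIP1, 2.49), the adaptor Dok1 (2.31), and the ITIM receptors Lair1 (3.56), Lilrb4a (3.07), Clec12a (3.03), Clec4a2 (2.93), Pirb (2.43) and Sirpa (1.90), all on the log2 scale, and Ubash3b (2.11), a suppressor of Syk signalling. Within batch 1 these 10 genes had values from 0.30 (Ubash3b) to 2.55 (Ptpn6), with 0.50 for Lair1 and Inpp5d and 0.83 for Lilrb4a, and none passed. Between the control batches 9 of the 10 had lower fitted levels in batch 2, among them Lair1 (-3.08, FDR 0.621), Lilrb4a (-2.26, FDR 0.445), Inpp5d (-1.99, FDR 0.863) and Ubash3b (-1.82, FDR 0.621), and none passed there either. Against the batch 2 controls the ITIM receptor Fcgr2b had 0.27 (FDR 0.925). Sirpa, the receptor for CD47, averaged 44.1 ± 23.2 CPM, 141 ± 90.2 CPM and 37.7 ± 9.84 CPM in batch 1 controls, WD and batch 2 controls, and within batch 1 its log2 fold change was 1.68 (SE 0.64, edgeR FDR 0.777). The abundant Ptpn11, Sla2 and Cd72 had -0.21, -0.59 and 0.64 against batch 2 and did not pass. The list's medians were 0.75, 1.36 and 2.00.

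Among the 12 other Fc receptors, 5 were tested within batch 1 and 4 against batch 2, and none passed in any comparison. Fcgrt, the neonatal Fc receptor that recycles IgG, averaged 41.2 ± 25 CPM in the batch 1 controls (n = 4), 72.9 ± 34.7 CPM under WD (n = 5) and 92.7 ± 25.4 CPM in the batch 2 controls (n = 5). Its log2 fold change was 0.84 (SE 0.57) against batch 1 and -0.35 (SE 0.31) against batch 2. Fcrls, Pigr and Trim21, the cytosolic antibody receptor, had 0.61, 0.91 and 1.32 against batch 2, with FDRs of 0.531 to 0.791. The lymphocyte ITAM chains were scarce, with means under WD of 4.29 ± 5.31 CPM for Cd3d, 3.86 ± 4.51 CPM for Cd79a and 1.29 ± 1.24 CPM for Cd247 (n = 5), and 0 of the 1 to 3 tested passed. Of the ligand genes 3 were in the table and 1, Jchain, was tested. Jchain, the joining chain of polymeric antibodies, averaged 92.2 ± 144 CPM under WD (n = 5), against 7.74 ± 13.7 CPM (n = 4) and 9.16 ± 12.5 CPM (n = 5) in the batch 1 and batch 2 controls. Its WD libraries ran from 4.91 to 346 CPM, and the log2 fold change was 3.57 (SE 1.66, FDR 0.969) within batch 1 and 3.32 (SE 1.02, FDR 0.0689) against batch 2. The list genes named as higher were read in the libraries behind the study's own list of raised genes. A direction shared with that list is not independent evidence.

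**Figure D4:**
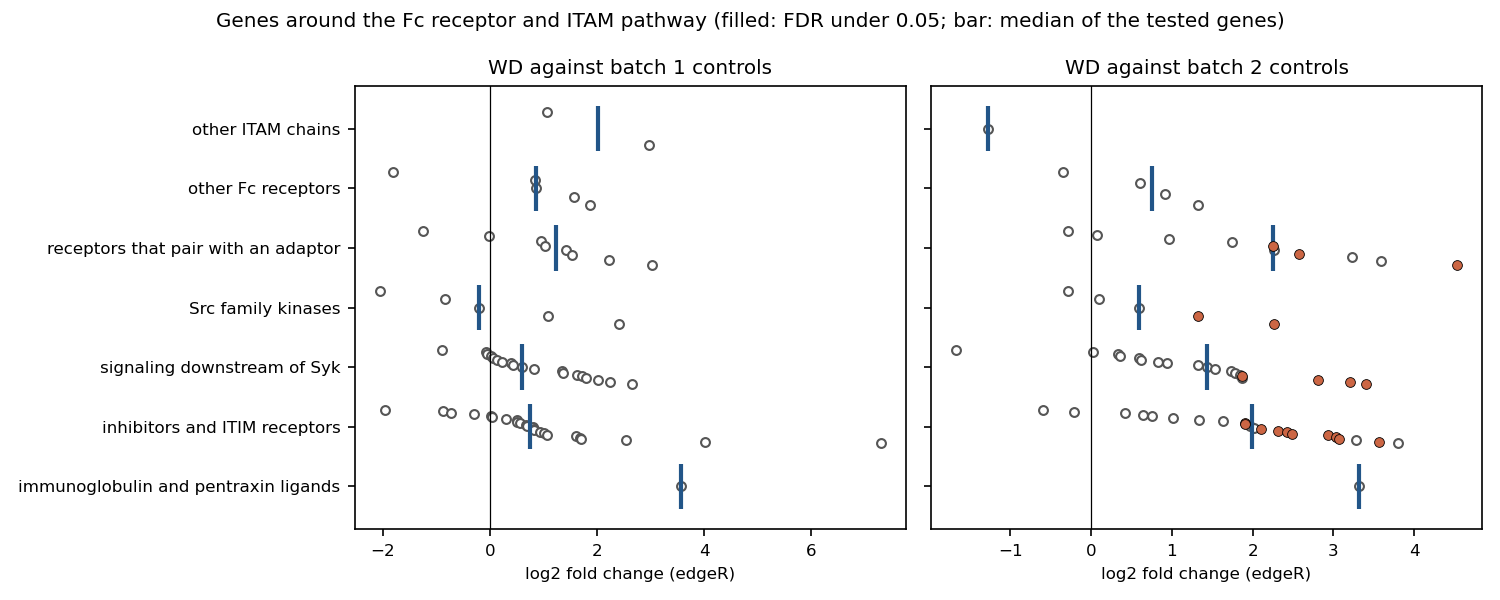
Log2 fold changes from edgeR (horizontal axis) of the tested genes in 7 lists around the pathway, for WD against batch 1 controls on the left and against batch 2 controls on the right. Each point is 1 gene, filled points have an FDR under 0.05 and the bar marks the median of the tested genes of a list. All filled points are on the right and above 0, and 10 of them are inhibitors and ITIM receptors.

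Markers of other cells known to use these receptors were also summed, and none of those below passed in any comparison. The summed level of 7 mast cell markers was 0 to 57.1 CPM in the batch 1 controls, 18.6 to 132 CPM under WD and 7.17 to 47.9 CPM in batch 2, with medians of the tested markers of 2.11, 1.18 and 1.24 on the log2 scale. Of 8 neutrophil markers 7 were in the table, and their sum ran from 130 to 321 CPM, 54.0 to 155 CPM and 41.1 to 139 CPM in the same order. The medians of the 3 tested were -1.84, -1.45 and -1.05 on the log2 scale against batch 1, all and batch 2 controls. The sum of 6 dendritic cell markers stayed at or below 15.2 CPM, with medians of the tested markers of 1.28, 0.18 and -0.45. That of 5 B cell markers stayed at or below 2.94 CPM in the controls, against 3.90 to 66.5 CPM under WD, so that every WD library lay above every control. The medians of the 2 or 3 B cell markers tested were 4.82, 4.55 and 4.09 on the log2 scale. Of the 5 markers, 0 were tested between the control batches, so these passed the count filter only with WD libraries in the fit. Their medians are therefore not ranked against those of other markers. The sum of 10 NK and T cell markers ran from 2.89 to 236 CPM in the batch 1 controls, from 4.44 to 19.1 CPM under WD and from 2.20 to 5.56 CPM in batch 2, and the 236 CPM of control 1 of batch 1 came from 1 marker. The medians of the 2 or 3 tested were 0.95, 1.00 and 0.32. The part of these cells in the levels of the 8 genes was not tested.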

How the data were processed

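RNA of whole eWAT from 14 mice was sequenced as single-end 75-base QuantSeq 3′ reads. The authors aligned them with Bowtie2, counted unique and multiple alignments with Bedtools (mm10 in the submitters' processing notes) and deposited raw counts per gene. They also deposited edgeR's TMM-normalized CPM on a log2 scale, 1 having been added first, and these log2 values differed by at most 0.140 from those computed here for the 8 genes. Multiple alignments can count a read at more than 1 gene. Of the 75-base words of Fcgr2b and Fcgr3 transcripts (GENCODE), 2.70% and 5.42% were shared with other genes, and 0 in the last 500 bases of any of the 8.

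The counts were tested with edgeR 4.0.16 (TMM, filter on low counts, quasi-likelihood test without covariates, Benjamini-Hochberg FDR) in R 4.3.3. Exact permutation tests were run in Python 3.11.15. Alternatives were limma-voom 3.58.1, DESeq2 1.42.0, other scalings, no filter, another pseudocount, blocks and left-out libraries. The scripts were tested on simulated data. In each of the 7 gene lists, the 4 genes with the highest mean CPM are named, and those called against batch 2 after their values were seen, except that some genes are not reported here. The 8 genes and all lists were chosen with earlier results of these data known. The replicate numbers in the labels did not pair the samples (correlations of deviations of -0.04 to 0.08). Protein sequences and immunoglobulin genes were not analysed here.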

Additional observations from a re-analysis of the deposited data

How the results depend on the processing

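Over the alternatives, the number of members called at an FDR of 0.05 changed as follows. Within batch 1 it was 0 (0% of all genes called), and 1 with DESeq2 (0.773% of all genes called higher). It was also 1 with controls 1 and 4 of batch 1 both left out (0.567%), chosen after seeing the data. With single libraries left out it ranged from 0 to 1, and was 1 without control 4 (0.326%). Against all controls it was 1 (0.435% of all genes called higher), and 2 with DESeq2 (1.12%), 4 with limma-voom (1.63%), 0 with batch as a covariate (0.00790%) and 4 with both controls left out (3.10%). With single libraries left out the range was 1 to 4, and it was 4 without control 4 of batch 1 (1.81%). Against batch 2 it was 6 (3.93%), with a range of 3 to 6. It was 3 without WD mouse 3 (3.00%) or batch 2 control 1 (2.82%). The causes were not tested. The numbers in the labels did not pair the samples, and the replicate block left 0, 5 and 0 members called within batch 1, against batch 2 and between the control batches, where 2.91% of all genes were called higher against batch 2.

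Some directions turned, among them that of Syk between the control batches, which was -1.23. For Hcst the log2 fold change within batch 1 became 1.53 in limma-voom, 2.97 with the replicate block and 0.72 with both controls left out (-0.50 to 1.28 with single libraries left out), and against all controls 0.01 with both left out (-0.35 to 0.20). It ranged from -0.41 to 0.12 against batch 2 and from -0.31 to 1.49 between control batches, where it was 0.00 on library totals alone. Fcgr2b against batch 2 was -0.30 in limma-voom (-0.07 to 0.58). Between control batches, limma-voom gave 0.05 for Fcgr1 (-0.87 to 0.26) and 0.83 for Syk (-1.66 to 0.40), Syk had 0.05 with the replicate block and 1.05 with both controls left out, and Tyrobp ranged from -0.67 to 0.29. The median of all genes was 0.42 within batch 1 in limma-voom, against 0.03.

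With a pseudocount of 0.1 CPM, the ratio of Fcgr2b to the macrophage markers against batch 2 became -2.03 (exact p = 0.0556), the mean log2 difference of Hcst against all controls was 0.06 and that of Syk between control batches 0.58, and the difference in ratio was -0.36 for Fcgr3 to Fcgr2b within batch 1 and 0.03 for Syk to Fcer1g against batch 2. With single batch 1 controls left out, mean log2 differences ranged from -0.06 to 1.12 for Hcst within batch 1, -0.25 to 0.19 for Hcst and 0.00 to 0.41 for Fcgr2b against all controls. Between control batches they ranged from -0.58 to 0.33 for Tyrobp, -0.64 to 0.23 for Fcgr1, -0.80 to 0.02 for Fcgr3 and -1.12 to 0.81 for Syk. Differences in ratio ranged within batch 1 from -0.23 to 1.48 for Fcgr3 to Fcgr2b, -0.36 to 1.26 for Syk to Fcer1g, -0.25 to 1.96 for Fcgr4 and -0.84 to 0.88 for Syk relative to the macrophage markers. Against all controls they ranged from -0.20 to 0.41 for Syk to Fcer1g, and relative to those markers from -0.04 to 0.06 for Fcer1g and -0.23 to 0.41 for Syk.

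Fcgr1, Fcgr2b, Fcgr4 and Hcst had between 0 and 557 counts in a library, and their fold changes carry the largest standard errors of the 8 genes within batch 1.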
